A study of Mus musculus with 44 samples.

Results

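The collagen chains studied here are the genes whose array symbol consists of Col, a number, the letter a and a further number. The rule found 36 genes among the 12394 genes with a probe set of their own on a mouse expression array, of 45 collagen genes of the family that were listed. They were measured in the left ventricle of 44 mice of the inbred strain FVB/N, with 1 array per mouse, so replicates were separate animals. Transgenic mice, called PKCε, carried a constitutively active A159E form of rabbit protein kinase C epsilon under the Myh6 promoter, which drives expression in cardiomyocytes. Wild-type FVB/N mice, called FVB, were the controls. Both were given either FG-3149, an antibody against connective tissue growth factor (the product of Ccn2), or control IgG, at 30 mg/kg by intraperitoneal injection 2 times a week for 3 months from 3 months of age, and tissue was taken at 6 months. There were 10 FVB IgG mice (7 females and 3 males), 12 FVB FG-3149 mice (6 of each sex), 10 PKCε IgG mice (5 of each sex) and 12 PKCε FG-3149 mice (6 of each sex).

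Collagens are the main structural proteins of the extracellular matrix. Their chains wind together into a rope-like helix inside the cell, after hydroxylation and folding, and are secreted, trimmed and assembled outside it. Fibrillar collagens form the cables that give the heart wall its tensile strength, collagen IV forms the sheet-like network of basement membranes around cardiomyocytes and vessels, collagen VI forms beaded filaments, and FACIT collagens sit on the surface of fibrils. In the heart, fibroblasts make most of the fibrillar collagen, and its accumulation between cardiomyocytes is fibrosis. Connective tissue growth factor is a matricellular protein made alongside collagen in fibrotic tissue.

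Each deposited value was the ratio of a probe set to its own median over the 44 arrays, so a log2 ratio of 0 is that median. Levels could not be compared between genes, and the signal above background was unknown. Differences between groups were estimated on the log2 ratios with limma over all genes with sex as a covariate, a gene was called at an adjusted p (Benjamini-Hochberg over 12394 genes) under 0.05, and the ± values are standard errors. The collagens comprised 9 fibrillar, 6 basement membrane, 3 beaded, 9 FACIT, 2 network, 2 multiplexin and 3 transmembrane genes, and 2 others (Col7a1 and Col26a1).

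The arrays also differed in transcripts other than collagens, and whether genotype or antibody had a part in this was not tested. The mean log2 ratio of the atrial transcripts Sln, Myl7 and Myl4 was above 4 on 10 of the 44 arrays of these ventricles, of which 5 were FVB IgG, 1 was FVB FG-3149, 2 were PKCε IgG and 2 were PKCε FG-3149. Transcripts of lung epithelium were highest on PKCε IgG replicate 9, with log2 ratios of 9.32 for Sftpc and 10.1 for Scgb1a1. Next in Sftpc was PKCε IgG replicate 10 at 3.53, with Scgb1a1 at 3.71. Scgb1a1 also reached 9.36 on FVB IgG replicate 4, where Sftpc stood at 0.711. It was high on some arrays of the other groups, such as FVB FG-3149 replicate 6 (5.17) and PKCε FG-3149 replicate 7 (4.74). The Y-linked gene Uty stood at a log2 ratio of 3.63 on replicate 11 of the FVB FG-3149 females, whereas the other female arrays reached at most 0.023 and the male arrays lay between 3.78 and 4.86. Mouse Prkce, whose probes need not detect the rabbit transgene, had 2 probe sets with PKCε differences of 0.49 and -0.57, so they did not check the genotype labels.

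Collagen transcripts were more abundant in the PKCε ventricles. Under control IgG, 21 of the 36 collagens were higher and 3 lower in PKCε than in FVB mice, in a comparison that called 42.2% of all genes, 20.7% of them as higher and 21.5% as lower. The median log2 difference was 0.69 over the collagens and -0.046 over all genes. Of the fibrillar collagens 7 of 9 rose, of the basement membrane chains 5 of 6, of the beaded chains 3 of 3, of the multiplexins 2 of 2, of the network collagens 1 of 2 and of the FACITs 3 of 9, whereas no transmembrane collagen rose and 2 of 3 fell. For 12 collagens every PKCε IgG array lay above every FVB IgG array, which held for 2.66% of all genes.

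**Figure D1:**
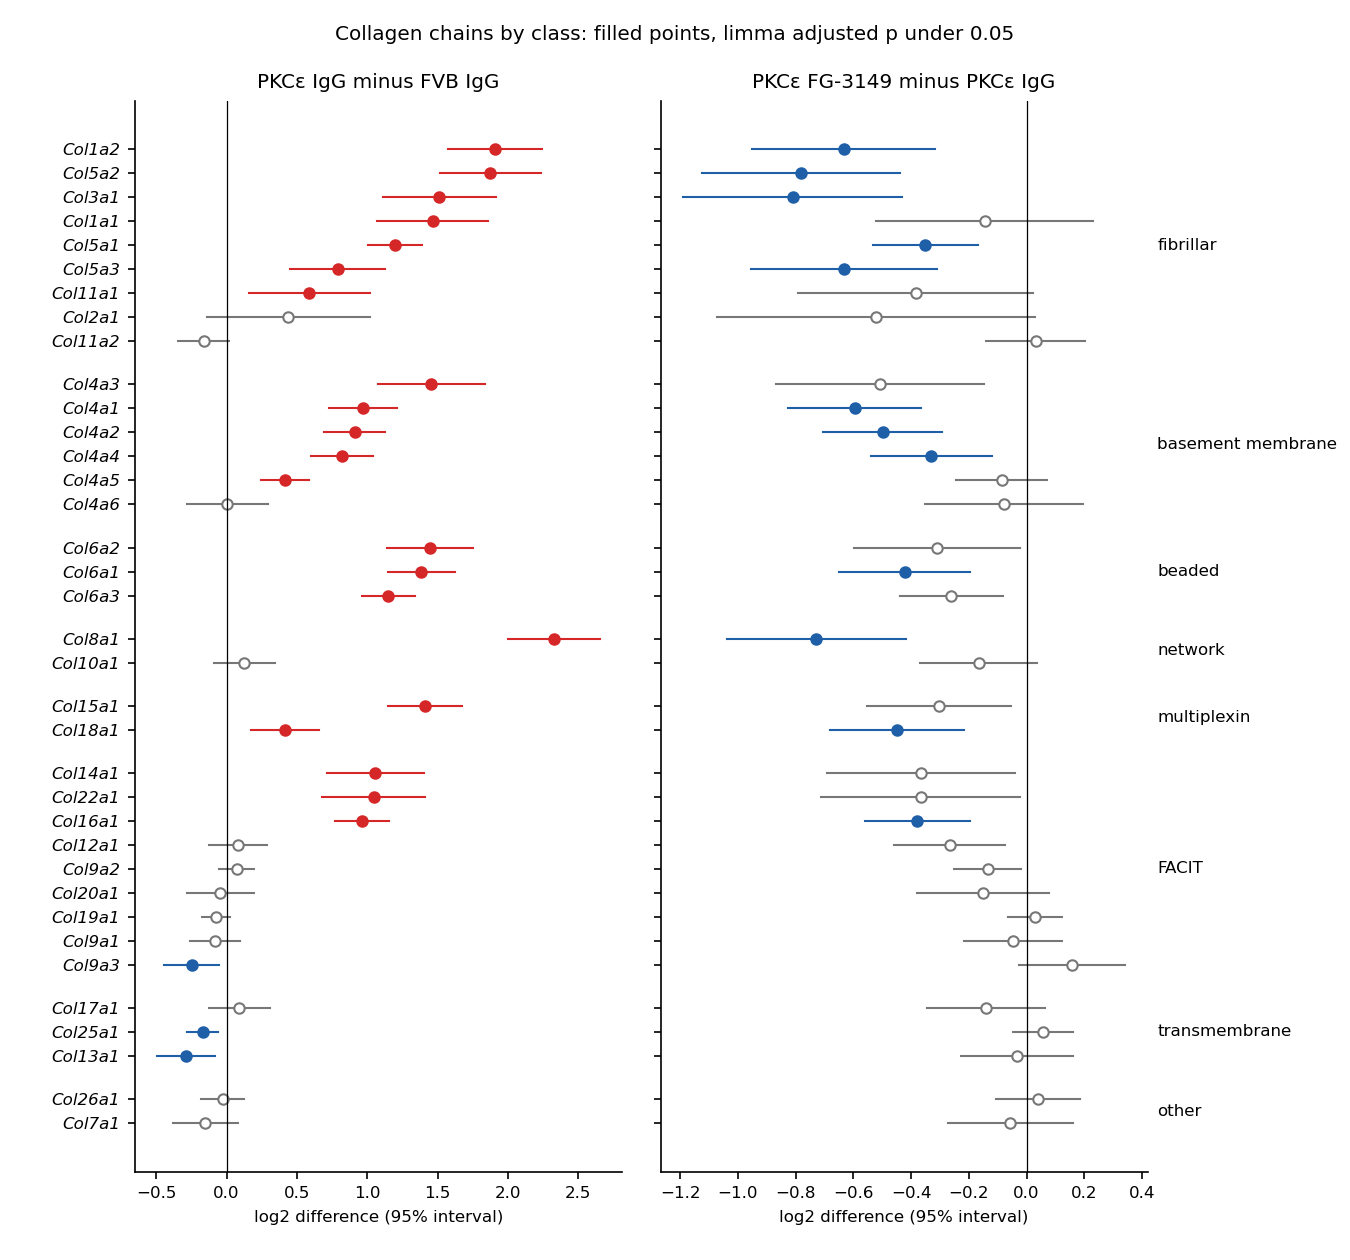
Log2 differences (points, filled where called) with their 95% intervals (lines) for the 36 collagen genes, grouped by structural class, in PKCε IgG against FVB IgG mice (n = 10 and 10) and in PKCε FG-3149 against PKCε IgG mice (n = 12 and 10). Col8a1 stands furthest to the right in the first comparison at 2.32, and in the second comparison the 12 called collagens lie below 0, between -0.81 and -0.33.

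Collagens I and III are the bulk fibrillar collagens of the heart wall. The collagen I chain Col1a2 had log2 ratios from -0.99 to 0.06 (median -0.41) in FVB IgG mice, from -1.46 to -0.39 (median -1.04) in FVB FG-3149 mice, from 0.79 to 2.12 (median 1.48) in PKCε IgG mice and from -0.06 to 1.47 (median 0.78) in PKCε FG-3149 mice. All PKCε IgG mice were above all FVB mice, and the PKCε FG-3149 mice spanned the space between. The PKCε difference under IgG was 1.91 ± 0.17 (3.76-fold, limma adjusted p = 2.25e-12). Its partner chain Col1a1 ranged from -1.06 to 0.20 (median -0.37) in FVB IgG, from 0.32 to 1.54 (median 0.997) in PKCε IgG and from -0.06 to 2.26 (median 0.71) in PKCε FG-3149 mice. The FVB and PKCε IgG mice did not overlap, and the highest array of all was a PKCε FG-3149 mouse. The PKCε difference was 1.46 ± 0.20 (2.76-fold, adjusted p = 6.78e-08).

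Col3a1, the chain of collagen III, ranged from -1.11 to 0.48 (median -0.41) in FVB IgG, from -2.13 to -0.60 (median -0.88) in FVB FG-3149, from 0.37 to 1.84 (median 1.16) in PKCε IgG and from -0.27 to 0.82 (median 0.36) in PKCε FG-3149 mice. The IgG groups overlapped narrowly, and all FVB FG-3149 mice were below all PKCε mice. Its PKCε difference was 1.51 ± 0.20 (2.85-fold, adjusted p = 4.34e-08).

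Collagen V chains are incorporated into collagen I fibrils and limit their diameter. Col5a1 ranged from -0.78 to -0.04 (median -0.44) in FVB IgG, from -0.91 to -0.31 (median -0.57) in FVB FG-3149, from 0.57 to 1.07 (median 0.68) in PKCε IgG and from 0.04 to 0.86 (median 0.39) in PKCε FG-3149 mice. No FVB mouse reached a PKCε mouse. Col5a2 ranged from -0.92 to 0.12 (median -0.32) in FVB IgG, from 0.42 to 2.42 (median 1.32) in PKCε IgG and from -0.09 to 1.64 (median 0.53) in PKCε FG-3149 mice. The differences between the IgG groups were 1.20 ± 0.095 for Col5a1 (2.30-fold, adjusted p = 3.08e-13) and 1.88 ± 0.18 for Col5a2 (3.67-fold, adjusted p = 2.49e-11). The third chain, Col5a3, overlapped between the groups, at -0.74 to 0.30 (median -0.27) in FVB IgG, -0.46 to 0.99 (median 0.63) in PKCε IgG and -1.16 to 0.54 (median 0.01) in PKCε FG-3149 mice. Its difference was 0.79 ± 0.17 (adjusted p = 0.000188).

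The fibrillar collagens known from cartilage were near their median ratio in most mice. Col11a1 had group medians between -0.0034 and 0.014, but its PKCε IgG females ranged from 0.019 to 2.88 (median 0.97), highest on replicate 9. PKCε IgG males ranged from -0.13 to 0.009 (median -0.05), and the highest PKCε FG-3149 mouse, a female, stood at 1.52. The PKCε difference of Col11a1, 0.59 ± 0.21 (adjusted p = 0.0228), became 0.32 (adjusted p = 0.075) without PKCε IgG replicate 9. The call was also lost without PKCε IgG replicate 6. Col2a1, the main collagen of cartilage, reached 4.26 on PKCε IgG replicate 9, where Sftpc and Scgb1a1 were also high, while the PKCε IgG median was 0.05. The group differences of Col2a1 (0.44 ± 0.29, adjusted p = 0.211) and Col11a2 (-0.16 ± 0.089, adjusted p = 0.14) were not called.

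**Figure D2:**
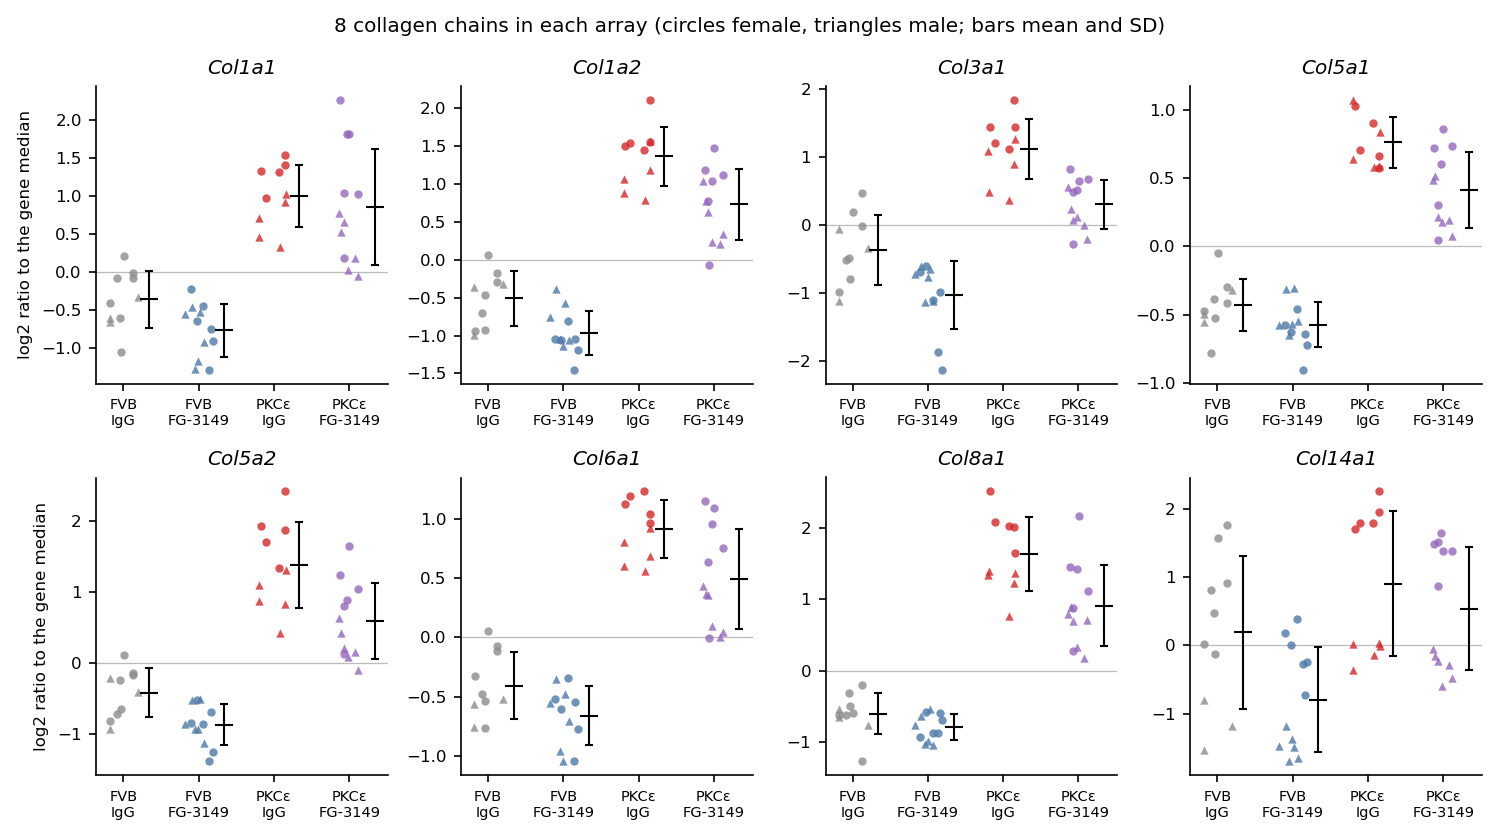
Log2 ratio of each of the 44 arrays for 8 interstitial collagens in the 4 groups, with circles for females, triangles for males and black bars for each group's mean and SD. In Col8a1 all PKCε arrays lie above all FVB arrays, whereas in Col14a1 the female arrays lie above the male arrays in each of the 4 groups.

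Col8a1, a short-chain collagen that forms hexagonal networks in vessel walls, had the highest difference of the 36. It ranged from -1.27 to -0.20 (median -0.60) in FVB IgG, from -1.05 to -0.54 (median -0.82) in FVB FG-3149, from 0.77 to 2.51 (median 1.52) in PKCε IgG and from 0.18 to 2.17 (median 0.83) in PKCε FG-3149 mice. All 22 PKCε mice were above all 22 FVB mice, and the difference between the IgG groups was 2.32 ± 0.16 (5.01-fold, adjusted p = 1.34e-14). On the second probe set of Col8a1 the genotypes overlapped, with FVB IgG mice up to 0.023 and PKCε FG-3149 mice from -0.025. Col10a1, the other network collagen measured and a product of hypertrophic cartilage, differed by 0.13 ± 0.11 (adjusted p = 0.329).

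Start regions are shown so that chains with and without a PKCε difference can be set side by side. RefSeq promoter sequences of build GRCm38.p6 matched 27 of the 36 collagens. The 250 bases before the start are printed for both network collagens, for Col1a2 and for Col6a1, 5′ to 3′ on the strand of the gene. Capitals mark CCAAT (the CCAAT box), GGGCGG (the GC box), TATAAA (the TATA box), TGANTCA (the AP-1 site) and GGAATG (the MCAT element), each on either strand and none overlapping another in these stretches.
Col8a1, chr16:57754738-57754987, minus strand: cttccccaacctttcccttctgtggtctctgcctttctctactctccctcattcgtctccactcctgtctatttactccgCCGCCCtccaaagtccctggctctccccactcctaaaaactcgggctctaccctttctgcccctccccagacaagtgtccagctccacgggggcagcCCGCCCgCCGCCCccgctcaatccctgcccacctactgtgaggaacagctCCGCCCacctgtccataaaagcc
Col10a1, chr10:34389731-34389980, plus strand: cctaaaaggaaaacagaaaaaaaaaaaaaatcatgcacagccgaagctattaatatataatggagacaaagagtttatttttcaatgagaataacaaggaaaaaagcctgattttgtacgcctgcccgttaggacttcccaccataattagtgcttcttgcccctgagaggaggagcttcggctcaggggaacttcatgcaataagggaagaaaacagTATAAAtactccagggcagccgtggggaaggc
Col1a2, chr6:4505368-4505617, plus strand: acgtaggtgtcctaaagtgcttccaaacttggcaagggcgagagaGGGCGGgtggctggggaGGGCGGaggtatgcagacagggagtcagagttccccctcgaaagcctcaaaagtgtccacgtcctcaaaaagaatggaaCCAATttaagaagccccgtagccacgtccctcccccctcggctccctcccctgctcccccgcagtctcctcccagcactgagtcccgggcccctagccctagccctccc
Col6a1, chr10:76726045-76726294, minus strand: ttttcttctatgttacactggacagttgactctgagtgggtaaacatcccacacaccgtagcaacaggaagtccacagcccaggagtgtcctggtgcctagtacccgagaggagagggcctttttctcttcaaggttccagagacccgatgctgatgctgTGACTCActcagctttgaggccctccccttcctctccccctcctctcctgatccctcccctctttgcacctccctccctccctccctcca
The stretch before Col8a1 held 4 GC boxes and was 60.8% G or C, whereas that of Col10a1 held a TATA box from position -32 (counted from the start, with -1 the last base before it) and was 41.6% G or C. Col1a2 held a CCAAT box from position -109 and 2 GC boxes, and Col6a1 held an AP-1 site from position -90. The same stretch before Col3a1, a chain that rose, is not printed. It held a TATA box from position -117 and an MCAT element from position -168, and was 35.2% G or C.

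Over windows of 300 bases, from 250 before to 50 after the start, the GC box was in 11 of the 16 matched collagens that rose and in 5 of the 11 others, against 35.7% of 32851 promoters. The TATA box was in 1 of the 16, Col3a1, and in 4 of the 11, against 13.6% of all promoters. CCAAT was in 8 of the 16 and 4 of the 11 (37.4% of all), and CAGAC, the SMAD box, was in 11 of the 16 and 6 of the 11 (49.6% of all). The AP-1 site was in 1 of the 27 (7.8% of all) and GGAATG in 5 of the 27 (14.7% of all). A collagen was counted when any of its promoters matched, whereas the shares of all are over single promoters, so the measures differ. These are letter matches, on both strands, and say nothing of binding.

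Collagen IV is the network-forming collagen of basement membranes, and its chains are encoded by head-to-head gene pairs. The start region of Col4a1 and Col4a2 is shown because it belongs to both chains. The start of Col4a2 on the plus strand and that of Col4a1 on the minus strand lie 21 bases apart in RefSeq, and the stretch from one start to the other (build GRCm38.p6, plus strand) is printed with the start bases in capitals.
Col4a2 to Col4a1, chr8:11312805-11312826: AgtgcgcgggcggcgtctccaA
The 300-base windows of this pair share 78 bases, whereas those of Col4a6 and Col4a5, whose starts lie 1343 bases apart, share 0.

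Col4a1 ranged from -0.94 to 0.09 (median -0.26) in FVB IgG, from -0.71 to 0.32 (median -0.40) in FVB FG-3149, from 0.54 to 0.89 (median 0.74) in PKCε IgG and from -0.49 to 0.52 (median 0.12) in PKCε FG-3149 mice. Col4a2 ranged from -1.01 to 0.07 (median -0.27), from -0.51 to 0.21 (median -0.29), from 0.43 to 0.72 (median 0.57) and from -0.53 to 0.52 (median 0.08) in the same groups. For both chains the PKCε IgG mice formed a tight group above all FVB mice, with SDs of 0.104 and 0.094. The PKCε differences under IgG were 0.97 ± 0.12 for Col4a1 (1.96-fold, adjusted p = 1.04e-08) and 0.91 ± 0.11 for Col4a2 (1.88-fold, adjusted p = 4.59e-09).

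The chains Col4a3, Col4a4 and Col4a5 make up the specialised network known from kidney glomeruli. Col4a3 ranged from -0.70 to 0.34 (median -0.26) in FVB IgG, from 0.16 to 2.05 (median 1.14) in PKCε IgG and from -0.03 to 1.93 (median 0.60) in PKCε FG-3149 mice. Col4a4 ranged from -0.61 to 0.13 (median -0.20), from 0.19 to 0.96 (median 0.60) and from -0.02 to 0.46 (median 0.32) in those groups. The IgG groups of Col4a3 overlapped and those of Col4a4 did not. Their PKCε differences were 1.45 ± 0.19 (2.74-fold, adjusted p = 3.29e-08) and 0.82 ± 0.11 (1.77-fold, adjusted p = 5.17e-08), and that of Col4a5 was 0.42 ± 0.083 (1.33-fold, adjusted p = 7.51e-05), with FVB IgG mice at -0.56 to 0.18 and PKCε IgG mice at -0.25 to 0.49. Col4a6 was the collagen IV chain that was not called, with a difference of 0.01 and a 95% interval from -0.28 to 0.29.

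**Figure D3:**
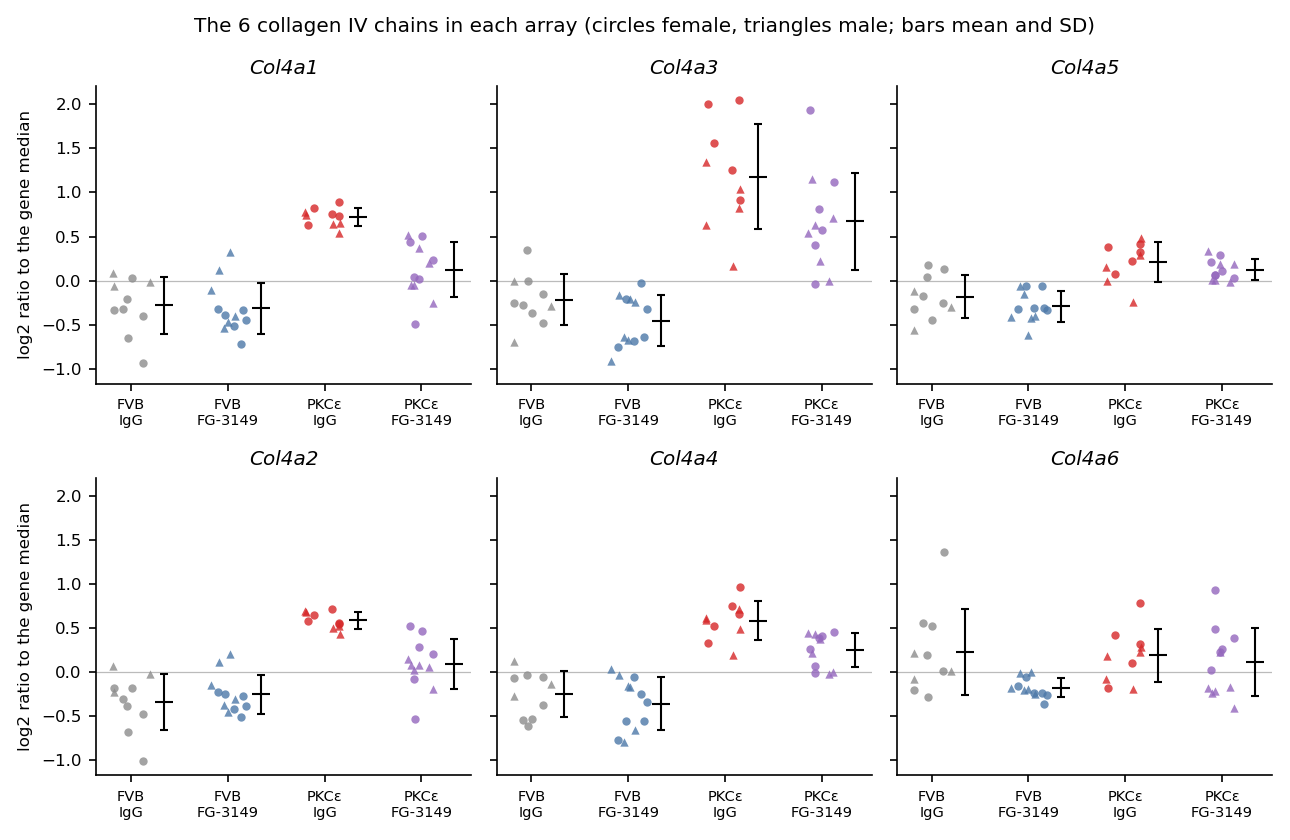
Log2 ratio of each of the 44 arrays for the 6 collagen IV chains in the 4 groups, with circles for females, triangles for males and black bars for each group's mean and SD. In Col4a1 the 12 PKCε FG-3149 arrays lie below the 10 PKCε IgG arrays, and in Col4a6 the groups overlap.

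Collagen VI forms the beaded filaments that link basement membranes to the interstitial matrix. Col6a1 ranged from -0.76 to 0.05 (median -0.50) in FVB IgG, from -1.05 to -0.35 (median -0.58) in FVB FG-3149, from 0.56 to 1.23 (median 0.94) in PKCε IgG and at most 1.15 (median 0.40) in PKCε FG-3149 mice. Col6a2 ranged from -1.01 to 0.20 (median -0.49) in FVB IgG and from 0.34 to 1.30 (median 0.93) in PKCε IgG mice, and Col6a3 from -0.72 to 0.02 (median -0.45) and from 0.36 to 0.91 (median 0.74). In all 3 chains the IgG groups did not overlap. The PKCε differences were 1.39 ± 0.12 for Col6a1 (2.61-fold, adjusted p = 1.67e-12), 1.45 ± 0.15 for Col6a2 (2.73-fold, adjusted p = 2.19e-10) and 1.15 ± 0.093 for Col6a3 (2.22-fold, adjusted p = 4.83e-13).

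The multiplexins Col15a1 and Col18a1 are basement membrane proteoglycans whose C-terminal fragments are known as restin and endostatin. Col15a1 ranged from -0.80 to 0.06 (median -0.52) in FVB IgG, from 0.66 to 1.34 (median 0.83) in PKCε IgG and from -0.14 to 1.46 (median 0.53) in PKCε FG-3149 mice, with no overlap of the IgG groups. Its PKCε difference was 1.41 ± 0.13 (2.66-fold, adjusted p = 1.12e-11). Col18a1 overlapped, at -0.48 to 0.83 (median 0.05) in FVB IgG, -1.19 to -0.04 (median -0.45) in FVB FG-3149, 0.13 to 0.90 (median 0.49) in PKCε IgG and -0.36 to 0.41 (median 0.01) in PKCε FG-3149 mice. Its difference was 0.42 ± 0.12 (1.33-fold, adjusted p = 0.00511).

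Of the FACIT collagens, which decorate fibrils, Col14a1, Col16a1 and Col22a1 rose. Col16a1 ranged from -0.48 to 0.16 (median -0.24) in FVB IgG, from 0.09 to 1.21 (median 0.63) in PKCε IgG and from -0.20 to 0.84 (median 0.22) in PKCε FG-3149 mice, with a narrow overlap, and differed by 0.96 ± 0.095 (1.95-fold, adjusted p = 6.11e-11). Col22a1, a collagen of tissue junctions such as that of muscle with tendon, ranged from -0.86 to 0.19 (median -0.08) in FVB IgG and from -0.01 to 2.08 (median 0.79) in PKCε IgG mice and differed by 1.05 ± 0.18 (2.06-fold, adjusted p = 7.61e-06). In males alone Col22a1 differed by 0.38 (adjusted p = 0.273), and its second probe set gave 0.30 in all mice (adjusted p = 0.0437 over all probe sets). Col14a1, which binds collagen I fibrils, overlapped widely between the groups and is described with the sexes; its difference was 1.06 ± 0.17 (2.08-fold, adjusted p = 2.23e-06), and 0.71 (adjusted p = 0.172) in a fit without the sex term. Col9a3, a chain of cartilage collagen IX, fell by 0.25 (adjusted p = 0.0351), with FVB IgG mice at -0.22 to 0.22 and PKCε IgG mice at -0.44 to 0.31, a call lost without FVB IgG replicate 4, 5, 6, 7, 9 or 10 or PKCε IgG replicate 5, 6, 7, 8, 9 or 10. The remaining 5 FACITs, Col9a1, Col9a2, Col12a1, Col19a1 and Col20a1, had differences between -0.08 and 0.08, and none was called.

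The transmembrane collagens, which are anchored in the cell membrane, did not rise. Col13a1 ranged from -0.10 to 0.92 (median 0.06) in FVB IgG and from -0.22 to 0.25 (median -0.04) in PKCε IgG mice and fell by 0.29 (adjusted p = 0.0191). Without the 10 arrays of high atrial transcripts the Col13a1 difference was -0.069 (adjusted p = 0.53), without those of the FVB IgG group alone -0.077 (adjusted p = 0.432), and in males alone -0.066 (adjusted p = 0.67). Col25a1 ranged from -0.11 to 0.34 (median 0.04) and from -0.29 to 0.05 (median -0.10) and fell by 0.17 (adjusted p = 0.00985), with -0.038 (adjusted p = 0.777) in males alone. The groups overlapped in both. Col17a1 (0.09 ± 0.11, adjusted p = 0.507), Col7a1, the anchoring-fibril collagen of skin (-0.15 ± 0.11, adjusted p = 0.282), and Col26a1 (-0.03 ± 0.075, adjusted p = 0.775) were not called.

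Markers of fibroblasts moved with the collagens. Of 13 fibroblast markers 10 rose in PKCε IgG mice, in a comparison that called 20.7% of all genes as higher and 21.5% as lower. The lowest difference of the list was 0.12, and its mean ranged from -0.79 to 0.51 in FVB IgG and from 0.017 to 1.09 in PKCε IgG mice. Against the same shares of all genes, 1 of 9 endothelial markers rose. Of 11 markers of ventricular cardiomyocytes 1 rose and 5 fell, among them Myh6 (-1.49 ± 0.14, adjusted p = 2.17e-11), whose promoter drives the transgene. With the mean of the fibroblast markers as a covariate, 15 of the 36 collagens were called in place of 24. In that fit the calls over all genes went from 5235 to 1983, and the values of Col14a1 (-0.044), Col18a1 (-0.28) and Col9a3 (0.0055) changed sign. The mean of 9 adipocyte markers was 1.12 in the FVB and -0.21 in the PKCε mice of the IgG groups, with 7 of the 9 lower, and that of 5 epicardial and mesothelial markers was 0.88 and 0.11, with 0 of the 5 called. Their part in the result was not tested. The difference between 3′ and 5′ log2 ratios of Gapdh, a sign of RNA quality, was -0.035 ± 0.078 (SD) in these FVB mice (n = 10) and 0.297 ± 0.253 (SD) in these PKCε mice (n = 10). With this difference as a covariate 21 of the 24 calls remained, without Col11a1, Col13a1 and Col9a3, while the calls over all genes went from 5235 to 3881. In bulk tissue, more cells of a type and more RNA per cell cannot be told apart.

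Collagen transcripts were lower in PKCε mice given the antibody than in those given IgG. In PKCε FG-3149 against PKCε IgG mice, 12 of the 36 collagens fell and 0 rose by limma (20 and 0 at an unadjusted p under 0.05), in a comparison that called 8.82% of all genes, 3.74% of them as lower. The median log2 difference was -0.31 over the collagens and 0.016 over all genes. By class, 5 of 9 fibrillar, 3 of 6 basement membrane, 1 of 3 beaded, 1 of 9 FACIT, 1 of 2 network and 1 of 2 multiplexin collagens fell, and 0 of the 3 transmembrane collagens did. This comparison shares its PKCε IgG mice with the genotype comparison, so the differences of each stand side by side and are not independent. The Gapdh 3′ to 5′ difference was 0.297 ± 0.253 (SD) in PKCε IgG and 0.037 ± 0.105 (SD) in PKCε FG-3149 mice. With it as a covariate 8 of the 12 calls remained, while the calls over all genes went from 1093 to 480. With quantile normalization the median difference was -0.16 over the collagens and 0.00135 over all genes. The calls of Col8a1, Col1a2, Col6a1 and Col4a4 were lost in that fit.

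The largest falls among the fibrillar chains were those of Col3a1 at -0.81 ± 0.19 (1.75-fold lower, adjusted p = 0.0044), Col5a2 at -0.78 ± 0.17 (1.72-fold lower, adjusted p = 0.00229), Col1a2 at -0.63 ± 0.16 (1.55-fold lower, adjusted p = 0.00768) and Col5a3 at -0.63 ± 0.16 (1.55-fold lower, adjusted p = 0.00903). Col5a1 fell by 0.35 (adjusted p = 0.0101). Each of these chains overlapped between the treated and control PKCε mice, as their ranges above show. Outside this class, Col8a1 fell by 0.73 (1.66-fold lower, adjusted p = 0.0018), Col18a1 by 0.45 (adjusted p = 0.00969), Col6a1 by 0.42 (adjusted p = 0.0129) and Col16a1 by 0.38 (adjusted p = 0.00538). With the Gapdh covariate the calls of Col18a1 (adjusted p = 0.0625), Col6a1 (adjusted p = 0.0869), Col16a1 (adjusted p = 0.0702) and the basement membrane chain Col4a4 (adjusted p = 0.214) were lost.

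Of the 6 collagen IV chains Col4a1, Col4a2 and Col4a4 fell, and Col4a1 separated the PKCε groups. Col4a1 was the 1 collagen of 36 for which all 12 treated PKCε mice were below all 10 controls, an arrangement that held for 0.0484% of all genes, and it fell by 0.60 (1.51-fold lower, SE 0.11, adjusted p = 0.000663). The second probe set of Col4a1 stood at -0.19 (adjusted p = 0.302 over all probe sets). Col4a2 fell by 0.50 (1.41-fold lower, SE 0.10, adjusted p = 0.0014), with 10 of the 12 treated mice below all controls and the highest treated mouse at 0.52, above the lowest control at 0.43. Col4a4 fell by 0.33 (adjusted p = 0.0361), a call lost without PKCε IgG replicate 2, 6, 8, 9 or 10 or PKCε FG-3149 replicate 5, 7, 9 or 10. Col4a3 (-0.51 ± 0.18, adjusted p = 0.0653), Col4a5 (-0.09 ± 0.079, adjusted p = 0.578) and Col4a6 (-0.08 ± 0.13, adjusted p = 0.806) were not called.

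Col1a1 was not called, with a difference of -0.14 ± 0.19 (adjusted p = 0.722) and a 95% interval from -0.52 to 0.23. Col6a3 (-0.26 ± 0.088, adjusted p = 0.0547), Col12a1 (-0.27 ± 0.095, adjusted p = 0.0719), Col6a2 (-0.31 ± 0.14, adjusted p = 0.184), Col15a1 (-0.30 ± 0.12, adjusted p = 0.12) and Col14a1 (-0.37 ± 0.16, adjusted p = 0.157) had differences below 0 that missed the threshold. Without the 10 arrays of high atrial transcripts, 6 of the 36 collagens were called in this comparison, and without these and PKCε IgG replicate 9, 4 were. The calls over all genes went from 1093 to 528 and to 325 in these fits. Without the atrial-high arrays the lost calls were those of Col1a2 (-0.55, adjusted p = 0.0501), Col16a1 (-0.30, adjusted p = 0.0584), Col5a3 (-0.60, adjusted p = 0.069), Col5a1 (-0.26, adjusted p = 0.0808), Col6a1 (-0.35, adjusted p = 0.081) and Col4a4 (-0.24, adjusted p = 0.263). Without replicate 9 as well, the calls of Col3a1, Col5a2 and Col18a1 were also lost, whereas Col5a3 was called. Col1a2 stood at -0.46 (adjusted p = 0.122) in that fit. The fibroblast marker mean ranged from 0.017 to 1.09 in PKCε IgG and from -0.14 to 0.73 in PKCε FG-3149 mice. Of its 13 markers 3 were lower, against 3.74% of all genes. With that mean as a covariate 9 collagens were called, while the calls over all genes went from 1093 to 647.

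In FVB mice, the antibody comparison called 3 collagens as lower and 0 as higher by limma (8 and 0 at an unadjusted p under 0.05), where 4.57% of all genes were called as lower. The median log2 difference was -0.050 over the collagens and 0.025 over all genes. The 3 were Col14a1 (-0.64 ± 0.16, adjusted p = 0.00862), Col3a1 (-0.63 ± 0.19, adjusted p = 0.0283) and Col18a1 (-0.55 ± 0.12, adjusted p = 0.00159). All 5 atrial markers fell in the same comparison, with 5 FVB IgG arrays and 1 FVB FG-3149 array of high atrial transcripts, whose part in the result was not tested apart from the fits that follow. Without the 10 arrays of high atrial transcripts the 3 differences were -0.24 (adjusted p = 0.629), -0.42 (adjusted p = 0.513) and -0.36 (adjusted p = 0.121), and no collagen was called. The calls over all genes went from 1116 to 217 in that fit. The call of Col3a1 was also lost without FVB IgG replicate 1, 2, 3 or 7 or FVB FG-3149 replicate 10 or 12, and without FVB IgG replicate 10 the comparison called 5 collagens. Other marker means were also lower in FVB FG-3149 than in FVB IgG mice, at -0.08 against 1.12 for adipocytes (5 of 9 markers called lower), -0.09 against 0.88 for epicardium and mesothelium (1 of 5), -0.64 against -0.19 for fibroblasts (4 of 13) and -0.70 against -0.10 for activated fibroblasts (1 of 6). With the fibroblast mean as a covariate none of the 3 collagens was called, while the calls over all genes went from 1116 to 767. The part of the other lists was not tested.

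Whether the antibody acted differently in the genotypes was tested as the difference of its effects. Of the 36 collagens 2 were called, against 3.86% of all genes called in either direction and 1.78% as lower: Col4a2 (-0.57 ± 0.15, adjusted p = 0.0163) and Col4a1 (-0.53 ± 0.16, adjusted p = 0.0486). In FVB mice the antibody difference was 0.07 for Col4a2 (adjusted p = 0.737) and -0.06 for Col4a1 (adjusted p = 0.803). The next lowest p belonged to Col8a1 (-0.62 ± 0.22, adjusted p = 0.104). Without the arrays of high atrial transcripts the differences of Col4a1 and Col4a2 were -0.33 (adjusted p = 0.418) and -0.32 (adjusted p = 0.338). The call of Col4a1 was lost in 29 of the 44 fits that left out 1 array (adjusted p up to 0.0763), and that of Col4a2 in none (up to 0.0278). The second probe set of Col4a1 gave -0.29 ± 0.15 (adjusted p = 0.329 over all probe sets).

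The genotypes also differed under the antibody. In PKCε FG-3149 against FVB FG-3149 mice, which share no array with the IgG groups, 19 collagens were higher and 4 lower, against 47.0% of all genes called, 21.5% as higher and 25.5% as lower. Col8a1 and Col1a2 both differed by 1.70 ± 0.15 (adjusted p = 2.55e-12 and 4.59e-12) and Col1a1 by 1.62 ± 0.18 (adjusted p = 9.6e-10). Col14a1 differed by 1.33, Col3a1 by 1.33 and Col5a2 by 1.46. Among the collagen IV chains, Col4a1 differed by 0.44 ± 0.11 (adjusted p = 0.00108) and Col4a2 by 0.34 ± 0.097 (adjusted p = 0.00434), where their IgG differences were 0.97 and 0.91. Col4a5 differed by 0.41 under the antibody and 0.42 under IgG, Col4a3 by 1.13 and 1.45, and Col4a4 by 0.61 and 0.82. Col5a3 (0.19 ± 0.15, adjusted p = 0.294) and Col11a1 (0.16 ± 0.19, adjusted p = 0.488) were not called. The 4 lower collagens were Col12a1, Col25a1, Col9a1 and Col9a3, with differences from -0.22 to -0.14. Leaving out 1 array lost the call of Col9a3 in 27 of 44 fits (adjusted p up to 0.112), of Col12a1 in 13 (up to 0.0875), of Col9a1 in 4 (up to 0.0583) and of Col25a1 in 0 (up to 0.0428). With the replicate number as a block the calls of Col9a3 (adjusted p = 0.0635) and Col12a1 (adjusted p = 0.0561) were lost. For 10 collagens all PKCε FG-3149 mice were above all FVB FG-3149 mice, as for 2.69% of all genes.

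The array carried more than 1 probe set for 19 of the collagens, 58 probe sets in all, and the one with the largest SD over the 44 arrays stood for the gene. The comparisons of probe sets were chosen after their values were seen, with p-values adjusted over all probe sets. For Col1a1 the probe sets gave PKCε differences of 1.46 and 1.54 but parted over the antibody in PKCε mice. The probe set used ranged from 0.32 to 1.54 in PKCε IgG and from -0.06 to 2.26 in PKCε FG-3149 mice. The other ranged from 0.85 to 1.62 (median 1.24) and from -0.02 to 1.12 (median 0.44) and gave an antibody difference of -0.72 ± 0.15 (adjusted p = 0.00188) where the first gave -0.14 (adjusted p = 0.712). So whether Col1a1 fell under the antibody depended on the probe set.

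For several other chains the probe sets also gave different antibody calls. The second probe sets of Col1a2 (PKCε difference 1.29, antibody difference -0.36, adjusted p = 0.0981 for the antibody), Col4a1 (0.83 and -0.19, adjusted p = 0.302) and Col8a1 (1.78 and -0.48, adjusted p = 0.193) gave PKCε differences above 0 and antibody differences that were not called. Those of Col3a1 (0.98 and -0.41, adjusted p = 0.0449), Col5a2 (1.49 and -0.57, adjusted p = 0.0111) and Col18a1 (0.65 and -0.50) were lower under the antibody too. The second probe set of Col6a2 was called under the antibody (-0.44, adjusted p = 0.0121) and the first was not. Of the 3 probe sets of Col5a1, 2 gave PKCε differences of 1.20 and 1.22 and the third 0.54, while their antibody differences were -0.35, -0.44 and -0.02 (adjusted p = 0.0101, 0.005 and 0.953). For Col5a3 the second probe set gave -0.03 for PKCε and 0.01 for the antibody.

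**Figure D4:**
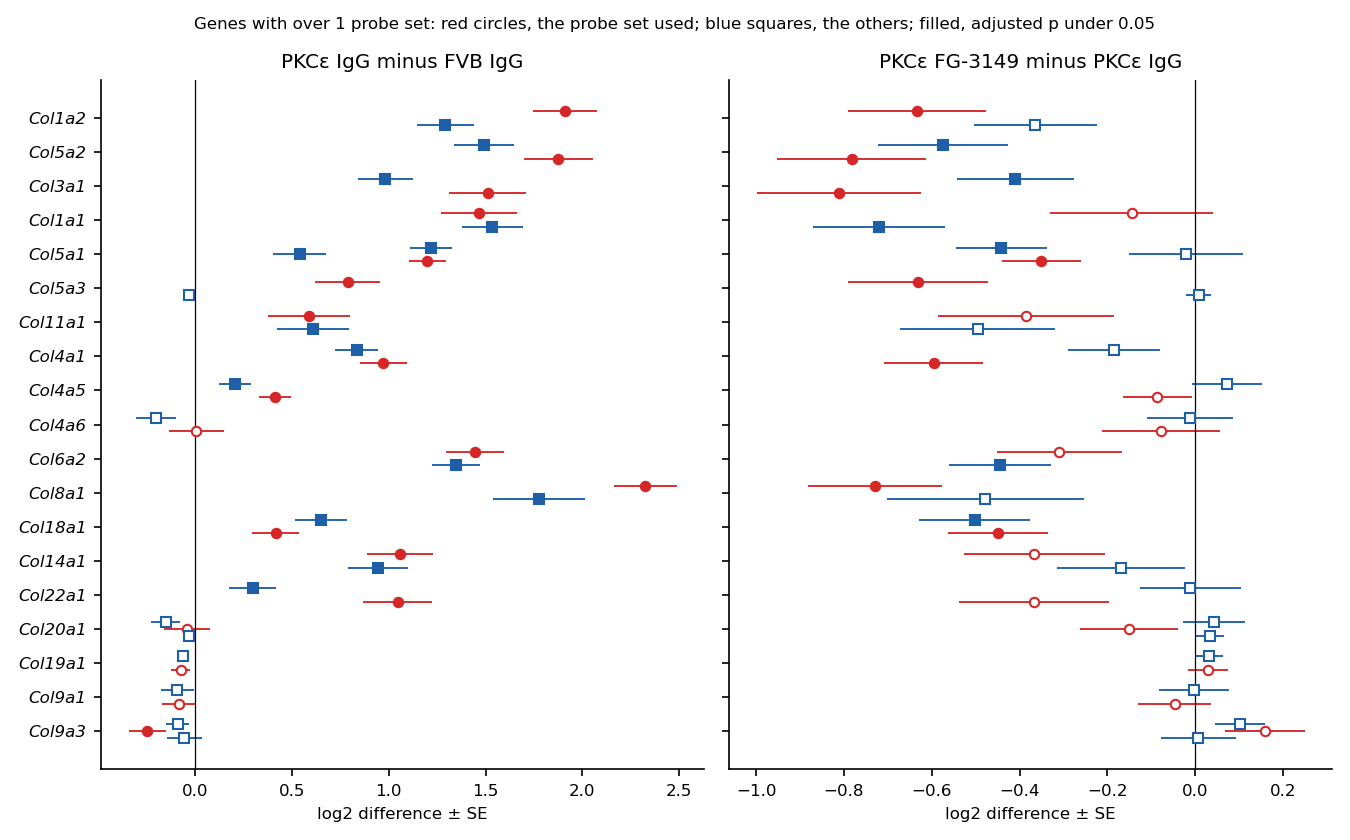
Log2 differences with their standard errors (red circles for the probe set used, blue squares for the others, filled where the adjusted p was under 0.05) of every probe set of the 19 collagens that had more than 1, in PKCε IgG against FVB IgG mice and in PKCε FG-3149 against PKCε IgG mice. The probe sets of Col1a1 lie together in the first comparison, at 1.46 and 1.54, and apart in the second, at -0.14 and -0.72.

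Sex was a covariate in the comparisons above, except where a fit took 1 sex alone or left the term out, and its own term was examined after its values were seen. Of the 36 collagens 10 were higher and 0 lower in females than in males by limma (14 and 2 at an unadjusted p under 0.05), against 15.8% of all genes called, 8.67% as higher. Col14a1, the FACIT that binds collagen I fibrils, led them with a difference of 1.72 ± 0.12 (3.29-fold, adjusted p = 3.95e-15), the 7th lowest p of all 12394 genes. Females ranged from -0.13 to 1.76 (median 0.82) and males from -1.54 to -0.79 (median -1.18) in FVB IgG mice, and females from -0.72 to 0.39 (median -0.12) and males from -1.70 to -1.18 (median -1.47) in FVB FG-3149 mice. In PKCε IgG mice females ranged from 1.70 to 2.26 (median 1.80) and males from -0.36 to 0.03 (median -0.01), and in PKCε FG-3149 mice females from 0.87 to 1.64 (median 1.44) and males from -0.60 to -0.05 (median -0.25). Every female was above every male in 4 of the 4 groups. The lowest FVB FG-3149 female was replicate 11, whose Uty log2 ratio of 3.63 lay just below the lowest male array at 3.78. The second probe set of Col14a1 gave 1.71.

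The other collagens higher in females had smaller differences, namely Col1a1 (0.51 ± 0.13, adjusted p = 0.00715), Col6a2 (0.43, adjusted p = 0.00315), Col5a2 (0.42, adjusted p = 0.0143), Col8a1 (0.41, adjusted p = 0.00874), Col16a1 (0.34, adjusted p = 0.000261), Col18a1 (0.34, adjusted p = 0.00371), Col6a1 (0.32, adjusted p = 0.0053), Col15a1 (0.29, adjusted p = 0.0214) and Col6a3 (0.21, adjusted p = 0.0208). All 3 collagen VI chains were among them, and none of the 6 collagen IV chains was. The second probe set of Col1a1 differed by 0.03 (adjusted p = 0.871). Of 13 fibroblast markers 8 were higher in females, against 8.67% of all genes. With their mean as a covariate 3 collagens were called for sex, while the calls over all genes went from 1956 to 336.

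The effects themselves were compared between the sexes. No collagen was called for a sex difference of the antibody effect in PKCε mice by limma (2 at an unadjusted p under 0.05, against 0.0161% of all genes called) or of the PKCε effect under IgG (6 at an unadjusted p under 0.05, against 0.0807% of all genes called). The PKCε effect called 24 collagens in females (42.3% of all genes) and 17 in males (14.5%), where FVB IgG held 3 males. The antibody in PKCε mice called 10 as lower in females (4.30% of all genes) and 0 in males by limma (0.0242%, with 12 collagens at an unadjusted p under 0.05). These counts come from 1 fit over both sexes. Separate fits of the antibody in PKCε mice called 6 collagens in females alone and 3 in males alone, where 808 and 57 of all 12394 genes were called.

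Most of the measured enzymes that fold procollagen rose in PKCε IgG mice, in a comparison that called 20.7% of all genes as higher and 21.5% as lower. Of 14 measured genes of folding and modification 12 rose in PKCε IgG mice and 1 fell, with a median of 0.56. P4hb, a subunit of prolyl 4-hydroxylase, rose by 0.70 ± 0.066 (adjusted p = 1.72e-11), P3h3, a prolyl 3-hydroxylase family member, by 1.09, the cyclophilin Ppib by 0.73 and the lysyl hydroxylase Plod1 by 0.58. Under the antibody in PKCε mice 3 of the 14 fell, against 3.74% of all genes, among them P4hb (-0.27 ± 0.062, adjusted p = 0.00497) and Ppib (-0.35, adjusted p = 0.0137).

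Cleavage and crosslinking follow secretion. Of 10 genes of secretion and propeptide cleavage 4 rose, against 20.7% of all genes, including Pcolce, which enhances removal of the C-propeptide (1.31 ± 0.13, adjusted p = 3.95e-11), and the procollagen C-proteinase Bmp1 (0.85). All 6 measured crosslinking genes rose, against the same share of all genes, among them the lysyl oxidase family members Loxl3 (1.32 ± 0.14, adjusted p = 4.18e-10), Loxl1 (1.30) and Lox (1.31, adjusted p = 0.000592). In treated PKCε mice Pcolce fell by 0.54 (adjusted p = 0.00316), Loxl3 by 0.78 (adjusted p = 0.000185) and Loxl1 by 0.45 (adjusted p = 0.027), and Lox stood at -0.74 (adjusted p = 0.106).

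Of 11 glycoproteins and proteoglycans that bind fibrils 8 rose and 1 fell in PKCε IgG mice (median 1.06), against 20.7% and 21.5% of all genes, led by Bgn (1.47 ± 0.13, adjusted p = 5.28e-12), Vcan (1.99), Postn (2.29) and Lum (1.12). The antibody comparison called 3 of the 11 as lower, against 3.74% of all genes, namely Vcan (-0.82, adjusted p = 0.00203), Postn (-1.01, adjusted p = 0.00406) and Bgn (-0.47, adjusted p = 0.0118). Of 8 genes of collagen receptors and uptake 2 rose and 1 fell, a share near the 42.2% of all genes called. Mrc2, which takes up collagen for degradation, rose by 1.35 ± 0.11 (adjusted p = 3.66e-13) and fell by 0.55 under the antibody (adjusted p = 0.000534). The integrin subunit Itgb1 rose by 0.50, and the fatty acid transporter Cd36 fell by 0.43 (adjusted p = 5.06e-05).

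Among 15 collagenases and their inhibitors 6 rose and 5 fell, with a median of 0.16, against 20.7% and 21.5% of all genes. The inhibitor Timp1 rose by 2.11 ± 0.27 (adjusted p = 3.43e-08) and fell by 1.30 ± 0.26 under the antibody (adjusted p = 0.00118). The gelatinase Mmp2 rose by 1.16 and stood at -0.18 (adjusted p = 0.422) under the antibody, the collagenase Mmp14 rose by 0.78 and fell by 0.55 (adjusted p = 0.00135), and the cysteine protease Ctsk rose by 0.96 and stood at -0.35 (adjusted p = 0.0663).

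Of 15 genes of profibrotic signalling 9 rose, against 20.7% of all genes, and the lowest difference of the list was -0.16, which was not called. Tgfb2 rose by 1.77 ± 0.15 (adjusted p = 1.67e-12), Tgfb3 by 1.28, the receptor Tgfbr2 by 0.79 (adjusted p = 1.18e-08) and Ltbp2, a microfibril protein of the latent TGF-β binding protein family, by 2.79 ± 0.29 (adjusted p = 2.22e-10). Under the antibody Ltbp2 fell by 1.74 (adjusted p = 6.65e-05), Tgfb3 by 0.60 (adjusted p = 0.022) and Tgfbr2 by 0.29 (adjusted p = 0.0384), and Tgfb2 stood at -0.28 (adjusted p = 0.244). Ccn2, whose protein the antibody binds, rose by 0.74 ± 0.23 in PKCε mice (adjusted p = 0.00756). Its antibody difference was -0.35 ± 0.21 in PKCε mice (adjusted p = 0.363) and -0.52 ± 0.22 in FVB mice (adjusted p = 0.135).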

How the data were processed

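Expression was measured in left ventricle RNA (250 ng) of 44 mice on Affymetrix 430A 2.0 arrays. Per the labels, the authors deposited ratios made with GCRMA in GeneSpring GX 7.3.1, each probe set divided by its median over the arrays; the genome build is not given in the sources used here. The array medians lay between 0.954 and 1.03, and no collagen value was at the lowest ratio of 0.01. Of 22690 probe sets 20393 named 1 gene, 691 several and 1606 none. Ratios were log2 transformed, the probe set with the largest SD stood for each gene, and group means plus sex were fitted over 12394 genes with limma 3.58.1 in R 4.3.3 (two-sided, 39 residual degrees of freedom). The procedure was tested on simulated data with noise drawn independently for each gene and array, without shared array differences such as the atrial transcripts. It recovered 44% to 56% of log2 changes of 0.25 and 82% to 92% of changes of 0.5. Each simulated comparison had 9 to 13 false calls.

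Every collagen was accounted for. Ranges of at least the IgG groups were given for those called in the genotype comparison under IgG or in the PKCε antibody comparison. The ranges of Col14a1 were given by sex, and Col11a1 was given as a span of medians with its PKCε IgG ranges by sex. For other lists up to 4 genes of lowest p were given. The members and lists were chosen with earlier results of these data known. Replicate numbers did not pair mice (median correlation of same-numbered deviations -0.026 and -0.0283 for the 2 main comparisons).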

Additional observations from a re-analysis of the deposited data

Results flagged for a closer look

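In groups of 10, an array was looked at again when its gap to the nearest other array exceeded 0.466 of the group's range, a limit that chance passes in about 1 group in 20. This happened in 11 of 72 groups. PKCε IgG replicate 9, the array highest in Sftpc and Scgb1a1, accounted for 5 of them. Its log2 ratios were 4.26 for Col2a1, 2.88 for Col11a1, 1.33 for Col10a1 and 0.63 for Col9a1, all genes known from cartilage, and -0.46 for Col5a3. The next highest PKCε IgG values were 0.22 for Col2a1 and 1.22 for Col11a1. Within the limit, replicate 9 was also the highest PKCε IgG array for Col1a1, Col1a2, Col3a1, Col5a2, Col4a3, Col12a1, Col13a1, Col14a1, Col16a1, Col18a1 and Col22a1. Those of these genes that rose in PKCε IgG mice kept that call without this array.

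FVB IgG replicate 2 was high for Col4a6 at 1.36 and low for Col8a1 at -1.27. Single arrays were high for Col11a1 in FVB IgG replicate 3 (0.39), Col26a1 in FVB IgG replicate 10 (0.37), Col11a2 in PKCε IgG replicate 1 (0.33) and Col20a1 in PKCε IgG replicate 5 (0.71).

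The antibody effect was called as different between the genotypes, by limma's test of the difference, for Col4a2 (-0.57, adjusted p = 0.0163) and Col4a1 (-0.53, adjusted p = 0.0486). As given above, the call of Col4a1 was lost in most fits that left out 1 array. Neither chain was called without the arrays of high atrial transcripts.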

How the results depend on the processing

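The count of collagens called between the genotypes under IgG (24 in the report) ranged from 22 to 24 when 1 array was left out, and was 15 with the fibroblast marker mean as a covariate. That covariate took the calls over all genes from 5235 to 1983. The antibody count in PKCε mice (12) ranged from 11 to 15, and was 6 without the arrays of high atrial transcripts, 6 in females alone, 3 in males alone and 4 without those arrays and PKCε IgG replicate 9, an alternative chosen after seeing the data. In the same order, the 1093 calls over all genes became 528, 808, 57 and 325. The antibody count in FVB mice (3) ranged from 2 to 5, and was 0 without the arrays of high atrial transcripts (in all groups or in FVB IgG, the latter chosen after seeing the data, or with PKCε IgG replicate 9 left out as well), in males alone and with the fibroblast covariate. The genotype count under the antibody (23) ranged from 20 to 25 and was 6 with the fibroblast covariate, which took the calls over all genes from 5830 to 1329. The count for the difference of antibody effects (2) ranged from 1 to 3. It was 1 with arrays centred on their median, quantile normalization, the mean of the probe sets, the probe set of smallest SD, PKCε IgG replicates 9 and 10 or FVB FG-3149 replicate 11 left out, or the Gapdh 3′ to 5′ difference as a covariate. It was 0 in either sex alone, at an adjusted p under 0.01 and in the 3 fits without atrial-high arrays. The counts for sex differences of effects ranged from 0 to 0 over single arrays, and that of the PKCε effect was 1 (Col25a1) without the atrial-high arrays of all groups or of FVB IgG. The sex count (10) ranged from 10 to 12 and was 6 with quantile normalization and 3 with the fibroblast covariate. Over all genes the 1956 calls for sex became 1453 and 336 in those fits. The cause of these shifts was not tested.

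Signs turned with the fibroblast covariate for Col14a1 (-0.044), Col18a1 (-0.28) and Col9a3 (0.0055) under IgG, for Col12a1 (0.079), Col18a1 (-0.28), Col25a1 (0.031) and Col9a3 (0.082) under the antibody, and in the sex term for Col18a1 (-0.059), Col1a1 (-0.062), Col5a2 (-0.098), Col6a1 (-0.041) and Col6a3 (-0.031). They also turned for Col11a1 in males alone (-0.074, genotype) and for Col5a3 with the probe set of smallest SD (-0.031 for genotype, 0.0074 for the antibody).

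With the replicate number as a block, the PKCε antibody count was 11, and no count moved by over 1.5 times. The sex alternatives were not run for the sex results, nor a fit without the sex term, and a fit of only the groups compared is that of all groups for the difference of antibody effects. Ratios scaled to each gene's median hide the signal over background, so faint probe sets could not be set apart.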
